A study of Mus musculus with 12 samples.

Results

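The integrins and focal adhesion proteins examined here are 36 genes chosen by name among the 35275 genes of the deposited count table, namely 24 genes of integrin alpha and beta chains and 12 genes of cytoplasmic proteins that act at adhesions. They were measured by RNA-Seq in cultured mouse cardiac fibroblasts from Smad7 fl/fl hearts (C57BL/6, 12 weeks old, used at passage 2), so every group came from mice with the loxP-flanked Smad7 gene. Control cells were infected with an adenovirus given in the labels as expressing green fluorescent protein and in the methods as empty, and Smad7-KO cells with an adenovirus expressing Cre recombinase, both for 48 h at a multiplicity of infection of 100. Both kinds of cell were left unstimulated or received TGF-β1 at 10 ng/ml, for a time that the labels give once as 2 h and once as 4 h, which made 4 groups of 3 libraries each. Nothing in the sources used here says whether the 3 libraries of a group came from separate animals or cultures, so the p values measure the spread between these libraries, which may be technical.

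Integrins are receptors of 1 alpha and 1 beta chain that bind matrix outside the cell and the actin cytoskeleton inside it. Talins and kindlins bind the tail of the beta chain and switch the receptor on, and focal adhesion kinase, paxillin, zyxin, vinculin and the complex of integrin-linked kinase, PINCH and parvin assemble on the clustered receptors. In cardiac fibroblasts these adhesions carry tension between the cell and the matrix, and integrins with an αv chain also bind the propeptide that holds TGF-β latent and can release the active factor.

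The promoters of 3 of the 5 members that rose with TGF-β1 in both kinds of cell (Itga5, Itgav and Itgb5), and of the leukocyte integrin alpha chains that were higher in Smad7-KO cells in both comparisons (Itgam and Itgax), are shown because the expression results below turn on these genes. RefSeq's table for GRCm38.p6 held 25 of the 36 promoters, and those of Itgal, Ptk2 and Itgae were not among them. Each line gives the 250 bases before the annotated start, 5′ to 3′ on the strand of the gene. In the first 3 sequences capitals mark AGAC, the core of a Smad binding element, or its reverse complement GTCT. AGAC on either strand stands in the same window of 82.9% of all 32851 promoters of the table, in Itga5 2 times, in Itgb5 2 times and in Itgav 0 times.
Itga5 (chr15:103366792-103367041, minus strand): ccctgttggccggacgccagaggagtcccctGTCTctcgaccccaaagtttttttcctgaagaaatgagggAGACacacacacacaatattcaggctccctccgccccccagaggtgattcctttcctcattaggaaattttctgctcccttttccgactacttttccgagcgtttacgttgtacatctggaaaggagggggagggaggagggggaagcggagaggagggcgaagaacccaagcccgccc
Itgav (chr2:83724147-83724396, plus strand): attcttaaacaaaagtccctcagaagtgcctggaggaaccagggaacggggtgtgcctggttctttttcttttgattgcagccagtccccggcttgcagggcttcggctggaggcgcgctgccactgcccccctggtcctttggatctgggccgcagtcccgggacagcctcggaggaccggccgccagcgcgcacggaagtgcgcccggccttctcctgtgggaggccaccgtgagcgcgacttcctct
Itgb5 (chr16:33829415-33829664, plus strand): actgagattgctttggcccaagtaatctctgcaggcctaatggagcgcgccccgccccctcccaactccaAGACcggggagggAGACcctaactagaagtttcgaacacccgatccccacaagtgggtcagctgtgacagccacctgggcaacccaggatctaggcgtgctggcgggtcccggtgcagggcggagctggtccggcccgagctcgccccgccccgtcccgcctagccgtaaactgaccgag
In the sequences of the leukocyte chains capitals mark GAGGAA, a core sequence bound by the myeloid factor PU.1, or its reverse complement TTCCTC, which 23.3% of the promoters hold. Itgam holds it 2 times and Itgax 0 times.
Itgam (chr7:128062390-128062639, plus strand): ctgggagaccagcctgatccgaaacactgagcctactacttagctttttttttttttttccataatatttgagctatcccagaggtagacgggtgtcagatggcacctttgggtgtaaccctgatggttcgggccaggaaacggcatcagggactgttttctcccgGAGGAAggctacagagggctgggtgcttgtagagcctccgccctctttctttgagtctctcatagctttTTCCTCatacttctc
Itgax (chr7:128129300-128129549, plus strand): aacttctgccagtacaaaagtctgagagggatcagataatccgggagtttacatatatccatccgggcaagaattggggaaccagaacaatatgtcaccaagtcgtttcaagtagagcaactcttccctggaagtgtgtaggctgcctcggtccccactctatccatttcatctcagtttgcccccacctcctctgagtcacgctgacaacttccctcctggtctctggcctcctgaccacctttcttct
Such matches describe letters only, and binding was not measured here.

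Library totals ranged from 19056916 to 25371321 counts, with a median of 22660845, and the members took from 0.387% to 0.835% of the counts of a library. Levels are given as CPM, which are counts divided by the TMM-scaled library total and set to a common total. Smad7 itself lay at 71.4, 74.6 and 77.2 CPM in unstimulated control cells and at 28.6, 28.4 and 31.1 CPM in unstimulated Smad7-KO cells, and at 145, 150.3 and 142 CPM against 80.8, 70.0 and 79.5 CPM with TGF-β1, so every Smad7-KO library lay below every control library of the same stimulation. All 9 fibroblast markers were detected, with a summed level of 3553 to 5712.9 CPM, but so were all 13 macrophage markers, at 17119 to 27630.1 CPM in sum. The 10 endothelial markers summed to 285 to 336 CPM in unstimulated control cells and 289.6 to 331 CPM in TGF-β1 control cells, against 49.3 to 59.1 and 46.7 to 47.5 CPM in the Smad7-KO cells. Xist, which is transcribed in female cells, and the Y-linked Eif2s3y were both present in every library, with Xist at 77.9 to 184 and 74.1 to 140.2 CPM in the control groups and 42.2 to 53.7 and 34 to 46.4 CPM in the Smad7-KO groups. These differences run with the Smad7-KO contrast, and their part in the results below was not tested.

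Unstimulated control library 2 stood apart from the other 11. Its counts fell by 0.416 on the log2 scale for each doubling of gene length relative to the median library, where the slopes of the others lay between -0.165 and 0.103. The members are long genes, with a median length of 4834 bases against 3007 over all genes tested. Of the 34 members tested, 30 were lower in this library than in the mean of unstimulated control libraries 1 and 3 (88.2%, against 52.8% of all genes tested), with a median log2 ratio of -0.58. Vcl, which encodes vinculin, was the most extreme, at 114, 15.2 and 228 CPM in the 3 libraries, so no comparison with unstimulated control cells could say much about it. Results with that group are therefore given with and without library 2 where its removal changed them.

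**Figure D1:**
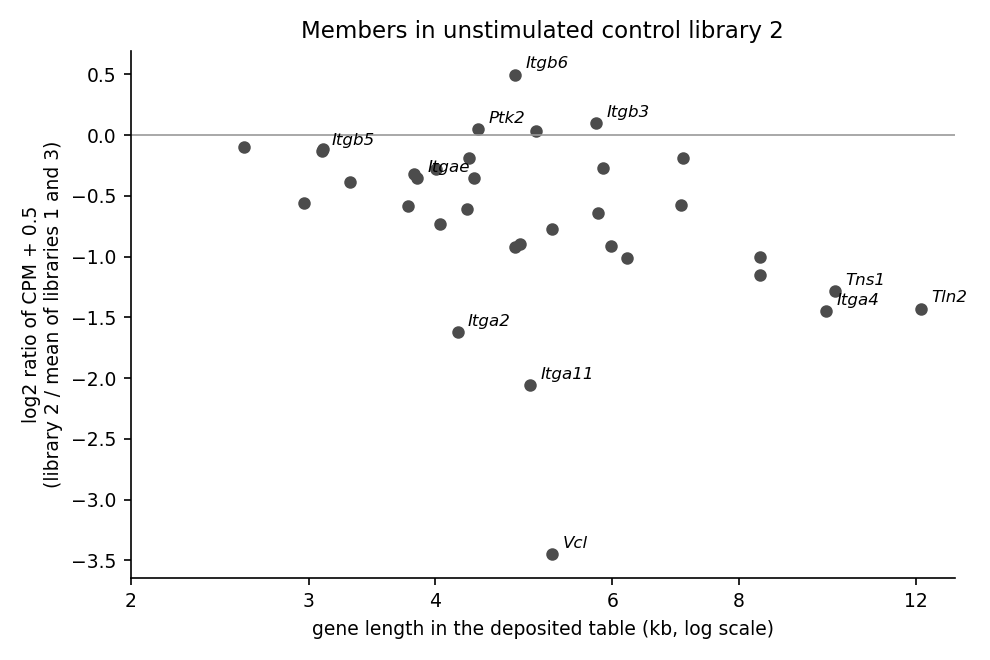
Each point is 1 of the 34 members tested, placed by its gene length (x axis, kb, log scale) and by the log2 ratio of its level in unstimulated control library 2 to the mean of libraries 1 and 3 (y axis, CPM + 0.5). The median of the points is -0.58, Vcl lies lowest at -3.45, and Itgb6, Itgb3, Ptk2 and Itga10 are the 4 above 0.

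On the deposited FPKM scale, which divides by gene length and so allows genes to be compared, Itgb1, the beta chain shared by the collagen, laminin and fibronectin receptors, and Itgb5, the partner of αv in a vitronectin receptor, had the highest levels. In unstimulated control cells the FPKM of Itgb1 was 239 to 354 (median 316) and that of Itgb5 was 201 to 256 (median 239), ranges that overlapped. With TGF-β1 Itgb5 stood above Itgb1 in every library, with Itgb5 at 432 to 468 and Itgb1 at 326 to 357 FPKM in control cells, and 455 to 506 and 304 to 332 FPKM in Smad7-KO cells. Zyx, Itgb2 and Tln1 came next in unstimulated control cells, with medians of 102, 98.4 and 82.4 FPKM and ranges that overlapped. Among the alpha chains Itgam had the highest median in all 4 groups, at 56 FPKM in unstimulated control and 138 FPKM in unstimulated Smad7-KO cells, above Itga5 at 27.3 and 29.7 and Itgav at 25.4 and 36.6 FPKM. The collagen receptors were lower, with medians between 4.5 FPKM for Itga11 and 0.217 FPKM for Itga2 in unstimulated control cells.

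The first question was how the adhesion genes differ in Smad7-KO cells, where the RNA of Smad7, an inhibitor of TGF-β signalling, was lower but still detected. These cells also received a different adenovirus from control cells, and an effect of Cre itself cannot be told apart from that of Smad7 loss. Of the 34 members that passed the filter on low counts, 16 passed the threshold (edgeR, adjusted p of 0.05 or less) in unstimulated cells, 9 of them above and 7 of them below control. Over all genes tested 25.8% passed, 12.1% higher and 13.7% lower. In TGF-β1-stimulated cells 13 of the 34 members passed, 6 higher and 7 lower, against 13% of all genes, 5.72% higher and 7.23% lower. The 2 comparisons share no library, and 12 members passed in both with the same direction, which is 75% of those called in unstimulated cells and 92.3% of those called with TGF-β1. Over all genes tested the same shares were 41.7% and 83%, from 1628 genes called in both with the same direction. The median log2 difference of the members was 0.26 without and 0.17 with TGF-β1, where that of all genes was -0.02 in both. Without unstimulated control library 2 the counts were 13 (7 higher and 6 lower) and 16 (9 higher and 7 lower). Leaving out 1 library gave from 10 members in unstimulated cells (without unstimulated Smad7-KO library 2 or 3) to 24 (without unstimulated control library 3), and a fit to the 6 libraries of that comparison alone called 6, 4 higher and 2 lower. Leaving out TGF-β1 control library 2 or TGF-β1 Smad7-KO library 2 gave 8 and 7 in TGF-β1-stimulated cells. With all genes split by length into 3 equal groups, 26 of the 34 members fall among the longest, where 21.4% were higher and 5.62% lower in unstimulated Smad7-KO cells, and with each library's trend on gene length removed 18 members passed, 9 in each direction.

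**Figure D2:**
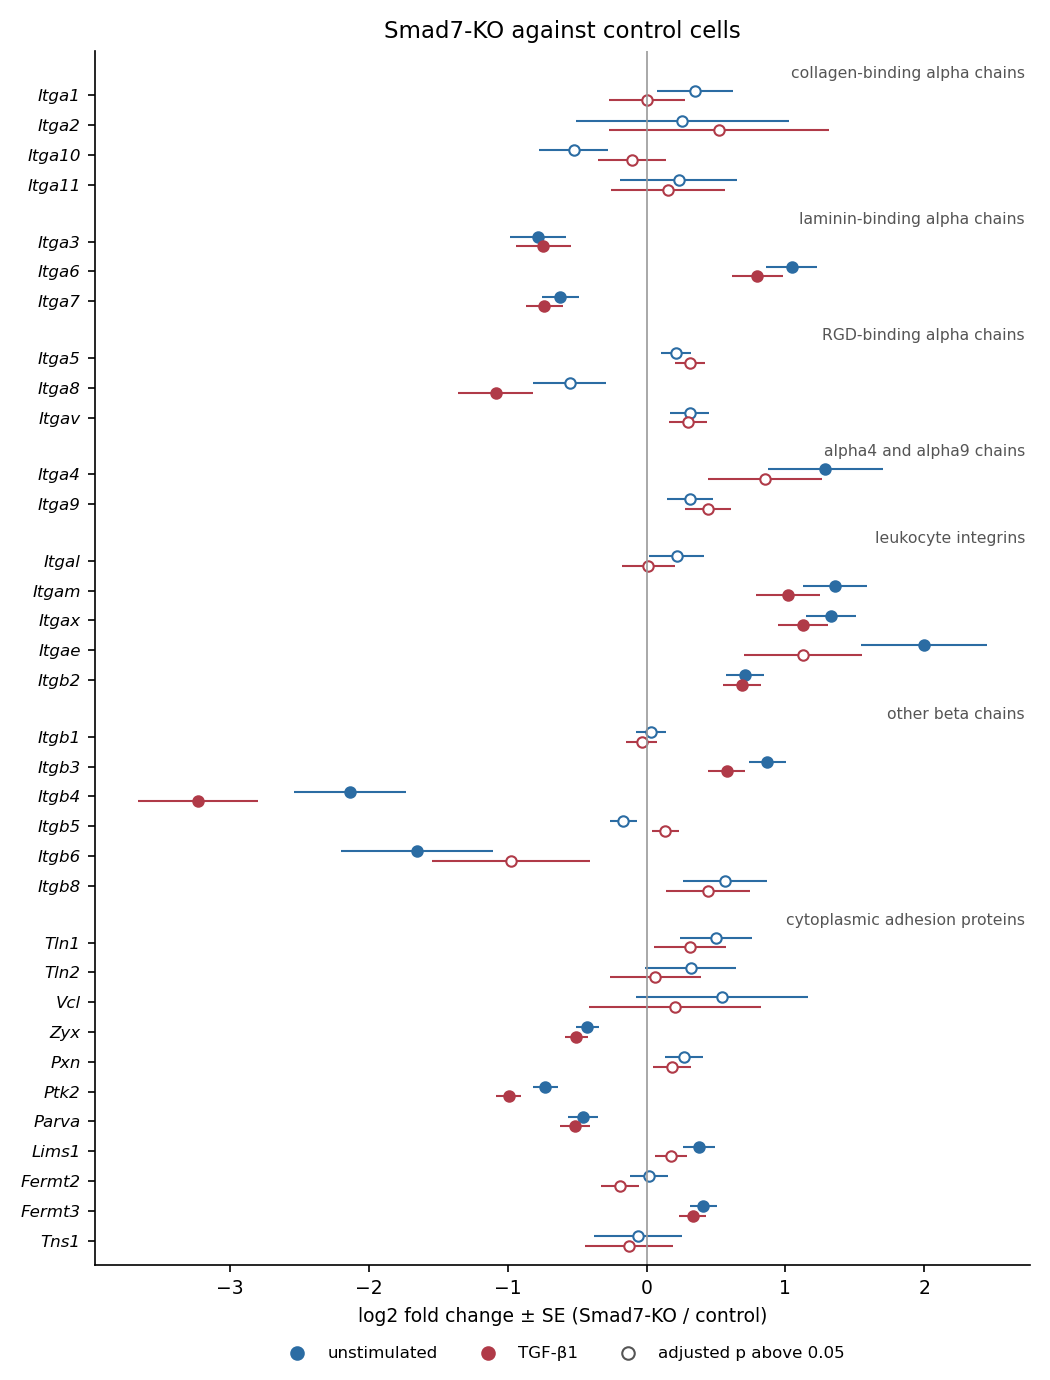
Log2 fold change ± SE of the 34 members tested in Smad7-KO against control cells (x axis), grouped by role (y axis), in unstimulated (blue) and TGF-β1-stimulated (red) cells, with 3 libraries in each group. Filled points have an edgeR adjusted p of 0.05 or less, and they lie to the left for Itga3, Itga7, Itgb4, Zyx, Ptk2 and Parva and to the right for Itga6, Itgam, Itgax, Itgb2, Itgb3 and Fermt3 in both comparisons.

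Among the cytoplasmic proteins, focal adhesion kinase, zyxin and α-parvin were lower in Smad7-KO cells. Ptk2, which encodes focal adhesion kinase, the tyrosine kinase that signals from clustered integrins, was at 65.6, 71.7 and 72.7 CPM in unstimulated control and 43, 40.1 and 43.7 CPM in unstimulated Smad7-KO libraries. With TGF-β1 its values were 125, 139 and 122 CPM in control and 64.5, 65.5 and 63.9 CPM in Smad7-KO libraries. The groups did not overlap in either comparison, and the log2 differences were -0.73 ± 0.09 (SE, adjusted p = 0.000497) and -0.99 ± 0.09 (adjusted p = 6.84e-05). Zyx encodes zyxin, a LIM protein that joins adhesions and stress fibres under tension, and it was at 318, 287 and 304 CPM in unstimulated control against 226, 231 and 219.9 CPM in Smad7-KO cells. TGF-β1-stimulated cells had 329.8, 367 and 344 CPM in control and 243, 248 and 242 CPM in Smad7-KO libraries. All Zyx values of Smad7-KO cells lay below all those of control cells, by -0.43 ± 0.09 (adjusted p = 0.0062) and -0.51 ± 0.09 (adjusted p = 0.00327) on the log2 scale. Both genes passed in all 12 fits that left out 1 library.

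Parva, whose product α-parvin links integrin-linked kinase to actin, was at 261, 227 and 285 CPM in unstimulated control and 201, 179 and 183 CPM in unstimulated Smad7-KO libraries. Its levels with TGF-β1 were 267, 261 and 257 CPM in control and 198, 188 and 164 CPM in Smad7-KO libraries, again without overlap. The log2 differences were -0.46 ± 0.11 (adjusted p = 0.0145) and -0.51 ± 0.11 (adjusted p = 0.0108). The first rested on unstimulated control library 1 and unstimulated Smad7-KO libraries 2 and 3, without any of which the adjusted p reached up to 0.0681, and the second on TGF-β1 Smad7-KO library 3 (adjusted p = 0.0535 without it). Lims1, which encodes the PINCH protein of the same complex, moved the other way in unstimulated cells, from 110.3, 109 and 138 CPM in control to 152, 161 and 153 CPM in Smad7-KO libraries. That difference of 0.38 ± 0.12 (adjusted p = 0.0382) passed in only 4 of 12 fits with 1 library left out and had an adjusted p of 0.0742 without unstimulated control library 2. With TGF-β1, Lims1 was at 147, 120.4 and 127 CPM in control and 148, 158 and 140.0 CPM in Smad7-KO libraries, which overlapped, and the difference of 0.18 ± 0.12 did not pass (adjusted p = 0.333).

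Fermt3 encodes kindlin-3, the integrin activator of blood cells, and was at 140.4, 123 and 122 CPM in unstimulated control and 165, 175 and 171 CPM in unstimulated Smad7-KO libraries. With TGF-β1 it was at 118, 129.9 and 142 and 166, 159.8 and 165 CPM. Smad7-KO libraries lay above control libraries by 0.41 ± 0.10 (adjusted p = 0.0135) and 0.33 ± 0.10 (adjusted p = 0.0437) on the log2 scale, but the first call was lost without unstimulated Smad7-KO library 2 or 3 (adjusted p up to 0.0571) and the second passed in only 3 of 12 fits, those without an unstimulated control library. Fermt2, which encodes kindlin-2 and is the form made by fibroblasts, did not pass, with log2 differences of 0.02 ± 0.14 and -0.19 ± 0.14. The talin genes Tln1 and Tln2, Pxn (paxillin), Vcl and Tns1 (tensin 1) did not pass either, with log2 differences between -0.13 and 0.54 over both comparisons. Without unstimulated control library 3, Tln1, Tln2 and Pxn passed in unstimulated cells, and without library 2 Pxn passed in TGF-β1-stimulated cells.

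Ilk, which encodes integrin-linked kinase, could not be judged, since it had 2, 0 and 1 counts in unstimulated control, 0, 3 and 0 in TGF-β1 control, 6, 2 and 1 in unstimulated Smad7-KO and 3, 4 and 2 in TGF-β1 Smad7-KO libraries. Of its annotated exon bases (chr7:105736592-105742925, GRCm38, GENCODE M21), 89.7% are also exons of Rrp8 or Taf10 on the opposite strand. Whether the counting used strand is not given in the sources used here, so these counts say nothing about the level of Ilk.

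**Figure D3:**
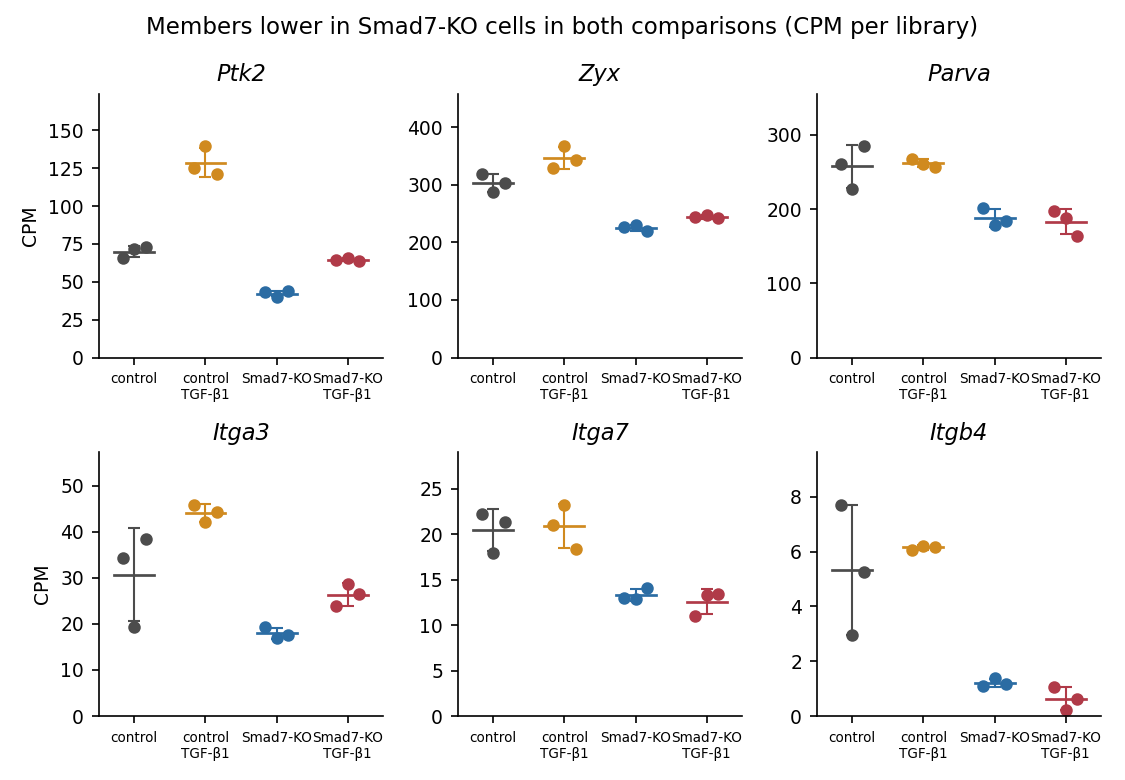
Level (CPM, linear axis from 0) in each of the 12 libraries of the 6 members lower in Smad7-KO cells in both comparisons, with points for libraries, bars for the mean and whiskers for the SD of 3 libraries. Every Smad7-KO library lies below every control library of the same stimulation, and Ptk2 is higher with TGF-β1 in both kinds of cell.

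The laminin-binding alpha chains split. Itga3 was at 34.3, 19.3 and 38.4 CPM in unstimulated control and 19.2, 16.9 and 17.7 CPM in Smad7-KO libraries, and at 45.8, 42.1 and 44.2 against 23.8, 28.7 and 26.5 CPM with TGF-β1. Control library 2 gave the lowest of the control values and lay just above the highest Smad7-KO library. The log2 differences of -0.78 ± 0.20 (adjusted p = 0.0201) and -0.74 ± 0.20 (adjusted p = 0.0312) were fragile: the first was lost without unstimulated control library 1 or any of the 3 unstimulated Smad7-KO libraries (adjusted p up to 0.0768) but was -1.02 (adjusted p = 7.3e-05) without control library 2, and the second passed in 4 of 12 fits, failing without any library of the comparison (adjusted p up to 0.126) and without unstimulated Smad7-KO library 2 or 3. Itga7, the laminin receptor chain best known from muscle, was at 22.2, 17.9 and 21.3 CPM in unstimulated control and 13, 12.8 and 14.1 CPM in Smad7-KO libraries, and at 21, 23.2 and 18.4 and 11, 13.3 and 13.4 CPM with TGF-β1. It was lower without overlap in both, by -0.62 ± 0.13 (adjusted p = 0.00855) and -0.74 ± 0.13 (adjusted p = 0.00472) on the log2 scale, and passed in all 12 fits with 1 library left out.

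Itga6, whose chain pairs with β1 or β4, was higher. Its level was 83.9, 65.1 and 115 CPM in unstimulated control and 180.0, 183 and 182 CPM in unstimulated Smad7-KO libraries, a 2.06-fold difference, whereas with TGF-β1 the libraries were at 163, 116 and 141 CPM (control) and 243, 262 and 224 CPM (Smad7-KO). On the log2 scale this was 1.04 ± 0.19 (adjusted p = 0.00335) and 0.80 ± 0.18 (adjusted p = 0.016), and the second was lost without TGF-β1 control library 2 or 3 or TGF-β1 Smad7-KO library 1 or 2 (adjusted p up to 0.072). Its partner chain Itgb4, which anchors hemidesmosomes in epithelia, had the largest difference of any member and in the opposite direction. Itgb4 was at 7.71, 2.97 and 5.27 CPM in unstimulated control and 1.09, 1.37 and 1.17 CPM in Smad7-KO libraries, and at 6.07, 6.22 and 6.17 and 1.08, 0.226 and 0.613 CPM with TGF-β1. The log2 differences were -2.13 ± 0.40 (adjusted p = 0.00472) and -3.23 ± 0.43 (adjusted p = 0.00087), and both passed in all 12 fits with 1 library left out. The summed endothelial markers were lower in the same libraries, as given above, 7 of the 10 passing as lower and 1, Vwf, as higher in each comparison. The 5 epithelial markers were near 0, at 0.896 to 1.22 CPM in unstimulated control and 0.198 to 0.558 CPM in unstimulated Smad7-KO cells in sum, and 1.3 to 2.09 and 0.359 to 1.04 CPM with TGF-β1. The part of either cell type in the values of Itgb4 was not tested.

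The leukocyte integrins were mostly higher in Smad7-KO cells. Itgam, the αM chain that pairs with β2 on macrophages and neutrophils, was at 263, 158 and 336 CPM in unstimulated control and 619.5, 666 and 659 CPM in unstimulated Smad7-KO libraries, and at 365, 242 and 333 against 625, 691 and 589 CPM with TGF-β1. No Smad7-KO library overlapped a control library, and the log2 differences were 1.36 ± 0.23 (adjusted p = 0.00282) and 1.02 ± 0.23 (adjusted p = 0.0148). The second was lost without TGF-β1 control library 2 or TGF-β1 Smad7-KO library 2 (adjusted p up to 0.0672). Of the exon bases of Itgam, 68.7% are shared with the annotated gene Gm49368 on the same strand. Itgax, the αX chain of macrophages and dendritic cells, was at 16.6, 10.8 and 20.0 CPM in unstimulated control and 40.6, 38.7 and 39.9 CPM in Smad7-KO libraries, and at 17.1, 15.2 and 16 and 38.7, 34 and 32.6 CPM with TGF-β1. Its differences of 1.33 ± 0.18 (adjusted p = 0.000767) and 1.13 ± 0.18 (adjusted p = 0.00232) passed in all 12 fits with 1 library left out.

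Itgb2, the beta chain that αL, αM and αX share, was at 286, 194 and 288 CPM in unstimulated control and 424, 421 and 409 CPM in Smad7-KO libraries, and at 309.9, 288 and 309.9 and 513, 484 and 465 CPM with TGF-β1. The groups were again apart, by 0.71 ± 0.14 (adjusted p = 0.00539) and 0.69 ± 0.14 (adjusted p = 0.00778) on the log2 scale. Itgae, the αE chain known from intraepithelial lymphocytes, rested on few reads, with 6, 4 and 14 counts in unstimulated control and 39, 37 and 23 in unstimulated Smad7-KO libraries. Its difference of 2.00 ± 0.46 (adjusted p = 0.0116) passed, whereas that with TGF-β1, from 10, 14 and 19 to 27, 40 and 26 counts, did not (1.12 ± 0.43, adjusted p = 0.106). Itgal, the αL chain of leukocytes, did not pass, with 0.22 ± 0.20 and 0.01 ± 0.19. Itgb7, a beta chain of lymphocytes, had 0 to 19 counts in a library and was not tested.

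Macrophage markers were present throughout and moved in part with these genes. Their sum was 17131 to 27630.1 CPM in unstimulated control and 24306 to 26691 CPM in unstimulated Smad7-KO libraries, which overlapped, and 17119 to 19977 and 23662 to 26768 CPM with TGF-β1, which did not. The unstimulated control median was 22918 CPM, and the highest sum was that of library 2, without which the unstimulated groups did not overlap. In each comparison 5 of the 13 macrophage markers passed as higher, namely Emr1, Csf1r, Cd68, Mrc1 and Ptprc, and 0 as lower. That is 38.5% higher, beside 12.1% of all genes without and 5.72% with TGF-β1, where 13.7% and 7.23% of all genes were lower. The median log2 difference of the 13 markers was 0.09 in unstimulated cells. Per 1000 CPM of summed macrophage markers, Itgam stood at 5.74 to 19.6 CPM in unstimulated control against 24.7 to 25.5 in Smad7-KO libraries and at 12.3 to 21.3 against 22 to 28 with TGF-β1, so the groups stayed apart on this scale. The same held for Itgax, at 0.391 to 1.16 against 1.45 to 1.67 and 0.771 to 0.997 against 1.22 to 1.64. For Itgam and Itgax the lowest unstimulated control value was that of library 2, and this scale does not remove that library's trend on gene length. Itgb2, in contrast, overlapped at 7.04 to 16.8 against 15.3 to 17.5 without and at 14.6 to 18.1 against 17.4 to 21.7 with TGF-β1, and Fermt3 overlapped at 4.44 to 7.14 against 6.4 to 6.8 and 6.6 to 7.12 against 6.17 to 7.03. Itga4 overlapped too, at 0.68 to 4.26 against 3.49 to 4.39 and 1.17 to 2.84 against 1.76 to 2.94. Apart without but overlapping with TGF-β1 were Itga6, at 2.36 to 6.72 against 6.83 to 7.4 and 5.87 to 9.52 against 8.38 to 10.6, Itgb3, at 0.575 to 1.03 against 1.07 to 1.17 and 0.717 to 1.04 against 0.888 to 1.06, and Itgae, at 0.00827 to 0.0345 against 0.0374 to 0.0795 and 0.0236 to 0.0462 against 0.0455 to 0.0732. In bulk RNA more cells of a type and more RNA per cell cannot be told apart. The 8 lymphocyte markers summed to at most 0.802 CPM in any library and the 5 neutrophil markers to at most 1.6 CPM.

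**Figure D4:**
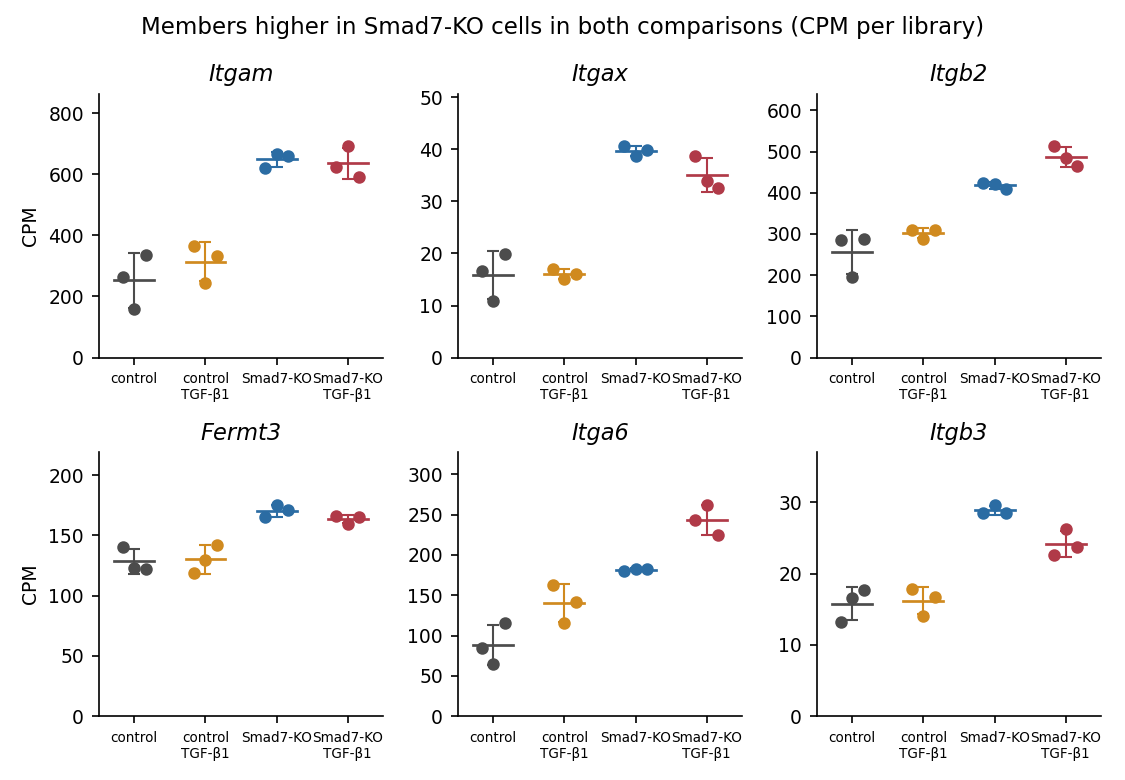
Level (CPM, linear axis from 0) in each of the 12 libraries of the 6 members higher in Smad7-KO cells in both comparisons, with points for libraries, bars for the mean and whiskers for the SD of 3 libraries. Every Smad7-KO library lies above every control library of the same stimulation, and the second unstimulated control library is the lowest of its group for Itgam, Itgax, Itgb2 and Itga6.

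The other beta chains differed among themselves. Itgb3, the partner of αv on fibroblasts and of αIIb on platelets, was at 13.2, 16.6 and 17.6 CPM in unstimulated control and 28.4, 29.7 and 28.5 CPM in Smad7-KO libraries, and at 17.8, 14.1 and 16.7 against 22.6, 26.2 and 23.8 CPM with TGF-β1. It was higher in Smad7-KO cells by 0.87 ± 0.13 (adjusted p = 0.00151) and 0.58 ± 0.13 (adjusted p = 0.0153) on the log2 scale, the second of which was lost without TGF-β1 control library 2 or TGF-β1 Smad7-KO library 2 (adjusted p up to 0.0742). The platelet markers in sum lay at 80.9 to 240.3 CPM in unstimulated control and 70.8 to 76.5 CPM in unstimulated Smad7-KO cells, and at 81.4 to 123 and 68.5 to 83.5 CPM with TGF-β1. Of the 4 platelet markers tested, 3 (Pf4, Gp1bb and Itga2b) were lower and 1, Ppbp, was higher in unstimulated Smad7-KO cells, the last from 0.224, 0.171 and 0.0844 to 0.545, 0.558 and 0.521 CPM, and with TGF-β1 0 were higher and 1, Gp1bb, was lower. Their part in the values of Itgb3 was not tested. Itgb6, the epithelial partner of αv, rested on 11, 17 and 14 counts in unstimulated control and 5, 7 and 2 in Smad7-KO libraries, and its difference of -1.65 ± 0.55 (adjusted p = 0.047) passed in only 2 of 12 fits with 1 library left out and was -1.34 (adjusted p = 0.135) without control library 2. With TGF-β1 it had 10, 8 and 10 counts in control and 9, 2 and 3 in Smad7-KO libraries, which overlapped as CPM, and did not pass. Itgb1 did not pass, at 1182, 993 and 1297 CPM in unstimulated control and 1205, 1164 and 1182 CPM in unstimulated Smad7-KO libraries, with log2 differences of 0.03 ± 0.11 and -0.03 ± 0.11 in the 2 comparisons. Itgb5 (-0.17 ± 0.10 and 0.14 ± 0.10) and Itgb8 (0.57 ± 0.30 and 0.44 ± 0.30) did not pass either.

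Of the remaining alpha chains, Itga4, a receptor for fibronectin and VCAM-1, was at 31.2, 18.8 and 72.9 CPM in unstimulated control and 107, 101 and 93.1 CPM in Smad7-KO libraries. Control library 3 reached most of the Smad7-KO level, and the difference of 1.29 ± 0.41 (adjusted p = 0.0424) passed in 4 of 12 fits with 1 library left out and was 0.95 (adjusted p = 0.0734) without control library 2. With TGF-β1, Itga4 was at 48.6, 23.1 and 31.9 CPM in control and 67.5, 72.8 and 47.2 CPM in Smad7-KO libraries, which overlapped (0.86 ± 0.41, adjusted p = 0.192). Itga8, an RGD-binding chain of mesenchymal cells, was lower in TGF-β1 Smad7-KO cells, at 2.27, 2.44 and 1.89 CPM against 5.9, 3.62 and 4.52 CPM in control (-1.09 ± 0.27, adjusted p = 0.0229), and passed in 7 of 12 fits, failing without TGF-β1 control library 1 or 3 or any TGF-β1 Smad7-KO library (adjusted p up to 0.0796). Unstimulated cells had 4.71, 3.6 and 7.09 CPM in control and 3.37, 3.09 and 4.08 CPM in Smad7-KO libraries, and the difference of -0.55 ± 0.26 did not pass (adjusted p = 0.127). The 4 collagen-binding chains Itga1, Itga2, Itga10 and Itga11, with Itga5, Itgav and Itga9, did not pass in either comparison. Their log2 differences lay between -0.53 for Itga10 in unstimulated cells and 0.52 for Itga2 with TGF-β1, and Itga2 had 0 to 28 counts in a library. Without unstimulated control library 3, Itga1, Itga5, Itgav and Itga9 passed as higher in unstimulated and Itgav, Itga5, Itga9 and Itga4 in TGF-β1-stimulated Smad7-KO cells, and without library 2 Itga5 and Itga9 passed with TGF-β1.

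The second question was how the same genes respond to TGF-β1. In control cells 6 of the 34 members passed, 6 higher and 0 lower, against 8.37% of all genes tested, 5.04% higher and 3.33% lower. Among Smad7-KO libraries 5 of the 34 passed, 5 higher and 0 lower, against 10.2% of all genes, 5.33% higher and 4.9% lower. At an unadjusted p under 0.05 there were 10 higher and 0 lower members in control cells and 8 higher and 1 lower ones in Smad7-KO cells, and DESeq2 called 6 and 6. Itga5, Itgav, Itgal, Itgb5 and Ptk2 passed in both kinds of cell, and Itga6 in control cells. The median log2 difference of the members was 0.20 in control and 0.00 in Smad7-KO cells, against -0.03 and -0.01 over all genes. Without unstimulated control library 3 the count in control cells was 11, and without unstimulated control library 2, which lies outside the comparison but in the fit, that in Smad7-KO cells was 10, in both cases higher only. For Smad7-KO cells a fit to the 6 libraries of that comparison alone called 16 members, 11 higher and 5 lower, and with each library's trend on gene length removed 11 passed, 9 higher and 2 lower, or 10 with the replicate number added as a block.

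**Figure D5:**
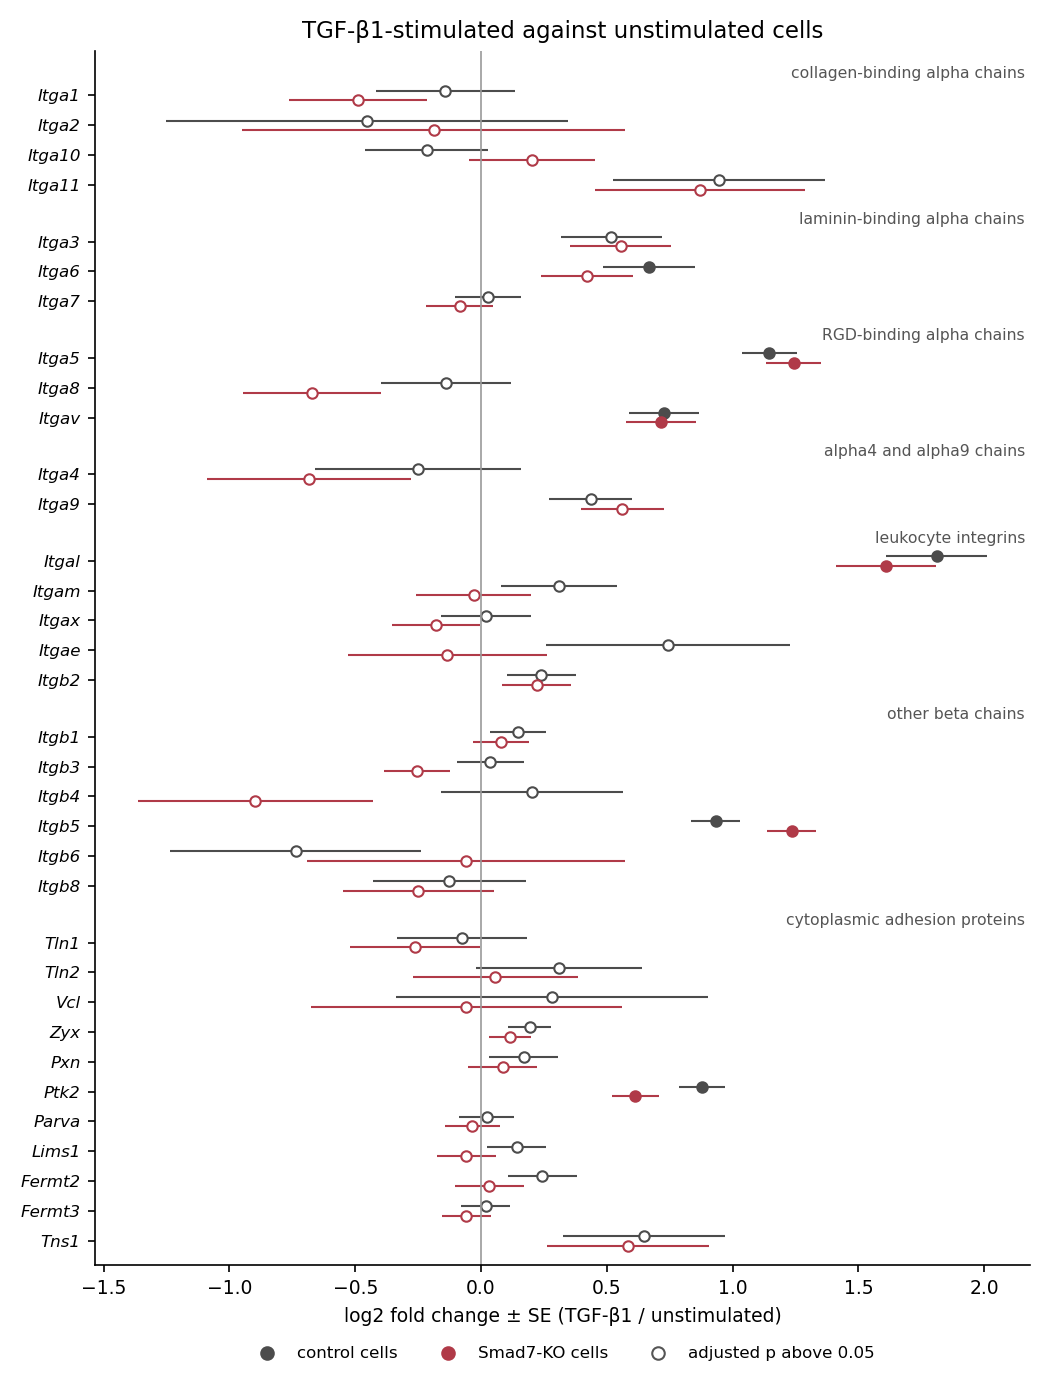
Log2 fold change ± SE of the 34 members tested in TGF-β1-stimulated against unstimulated cells (x axis), grouped by role (y axis), in control (grey) and Smad7-KO (red) cells, with 3 libraries in each group. Filled points have an edgeR adjusted p of 0.05 or less and all lie to the right of 0, with Itgal farthest at 1.81 in control and 1.61 in Smad7-KO cells.

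The alpha chains Itga5 and Itgav and the beta chain Itgb5, of fibronectin and vitronectin receptors, rose, whereas the beta chains Itgb1 and Itgb3 did not pass. Itga5, the alpha chain of the fibronectin receptor α5β1, went from 117, 93.2 and 121 CPM to 245, 233 and 255 CPM in control cells and from 121, 129 and 134 CPM to 296, 315 and 298 CPM in Smad7-KO cells. Every stimulated library exceeded every unstimulated one, by 2.21-fold in control (1.15 ± 0.11 on the log2 scale, adjusted p = 4.92e-05) and 2.36-fold in Smad7-KO cells (1.24 ± 0.11, adjusted p = 2.32e-05). Itgb5 rose from 774, 678 and 708 CPM to 1309.6, 1385 and 1428 CPM in control cells and from 654, 622 and 648 CPM to 1581, 1435 and 1511 CPM in Smad7-KO cells. Its stimulated libraries also lay entirely above the others, by 0.93 ± 0.10 (adjusted p = 8.98e-05) and 1.24 ± 0.10 (adjusted p = 9.61e-06) on the log2 scale. Itgav, its partner chain, lay at 175 to 253 CPM in unstimulated and 310.5 to 376 CPM in stimulated control libraries (0.73 ± 0.14, adjusted p = 0.00621), and at 249.6 to 258 against 378 to 443 CPM in Smad7-KO libraries (0.71 ± 0.14, adjusted p = 0.00604). The beta chain of the fibronectin receptor, Itgb1, was at 0.15 ± 0.11 in control and 0.08 ± 0.11 in Smad7-KO cells on the log2 scale, and Itgb3, the other partner of αv named above, at 0.04 ± 0.13 (adjusted p = 0.908) and -0.26 ± 0.13 (adjusted p = 0.321).

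Itgal had the largest response of the members. It lay at 15.7, 9.37 and 17 CPM in unstimulated and 57.1, 40.5 and 50.9 CPM in stimulated control cells, and at 16.2, 16.4 and 16.6 and 50.1, 54.5 and 45.3 CPM in Smad7-KO cells. The log2 differences were 1.81 ± 0.20 (adjusted p = 0.000147) and 1.61 ± 0.20 (adjusted p = 0.000258), with no overlap in either. The sum of the macrophage markers lay at 17131 to 27630.1 CPM in unstimulated and 17119 to 19977 CPM in stimulated control cells. It lay at 24306 to 26691 and 23662 to 26768 CPM in Smad7-KO cells. Per 1000 CPM of this sum, Itgal stood at 0.339 to 0.995 CPM in unstimulated and 2.06 to 3.34 CPM in stimulated control libraries. On the same scale Smad7-KO libraries were at 0.615 to 0.665 CPM unstimulated and 1.69 to 2.2 CPM stimulated, so neither pair of groups overlapped. The part of macrophage RNA in the values of Itgal was not tested. The other leukocyte chains tested did not pass, with log2 differences between -0.18 and 0.74. Ptk2 rose from 65.6 to 72.7 to 122 to 139 CPM in control cells (0.88 ± 0.09, adjusted p = 9.47e-05) and from 40.1 to 43.7 to 63.9 to 65.5 CPM in Smad7-KO cells (0.61 ± 0.09, adjusted p = 0.001). Stimulated Smad7-KO libraries thus stood below the lowest unstimulated control library for Ptk2. Itga6 rose in control cells, from 65.1 to 115 to 116 to 163 CPM (0.67 ± 0.18, adjusted p = 0.0464), but passed in only 2 of 12 fits with 1 library left out, those without unstimulated control library 3 or TGF-β1 control library 2, and was 0.49 (adjusted p = 0.0644) without unstimulated control library 2. In Smad7-KO cells it was at 180.0 to 183 and 224 to 262 CPM (0.42 ± 0.18, adjusted p = 0.22). Itga11, the collagen receptor chain typical of myofibroblasts, was at 21.9, 6.68 and 37 CPM in unstimulated and 49, 32.2 and 45.8 CPM in stimulated control libraries, and its difference of 0.95 ± 0.42 did not pass (adjusted p = 0.233). Its Smad7-KO libraries were at 26.1, 25 and 26.3 CPM unstimulated and 46.9, 55 and 39.5 CPM stimulated, without overlap. That difference of 0.87 ± 0.42 did not pass either (adjusted p = 0.28), with an error from the spread over all 12 libraries.

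The third question was whether the effect of Smad7 loss depends on stimulation with TGF-β1. The interaction term passed for 0 of the 34 members by edgeR, against 3 of all 15150 genes (0.0198%), and for 0 members by DESeq2 and by limma. At an unadjusted p under 0.05 there was 1 member, Itgb5 (0.30 ± 0.14 on the log2 scale, edgeR adjusted p = 0.98). The interaction estimates and their errors were -0.26 ± 0.13 for Ptk2, 0.10 ± 0.15 for Itga5 and -1.10 ± 0.59 for Itgb4. With 3 libraries a group, an interaction that did not pass is not shown to be absent, and the detectable size was not computed.

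Around the members, 49 other proteins of the adhesion plaque were tested. Upon Smad7 loss without stimulation 7 were higher and 9 lower, which is 14.3% and 18.4% of them, beside 12.1% and 13.7% of all genes. With TGF-β1 1 was higher and 8 were lower, or 2.04% and 16.3% beside 5.72% and 7.23% of all genes. The median log2 differences were 0.13 and 0.02. The largest differences in unstimulated cells were those of Cav1, the coat protein of caveolae (-1.21, adjusted p = 6.77e-05), Fhl2, a LIM domain protein (-0.91, adjusted p = 0.00373), and Fblim1, the filamin-binding migfilin (0.89, adjusted p = 0.00282). With TGF-β1 they were those of Cav1 (-1.16, adjusted p = 0.000101), Kank1, which surrounds adhesions (-1.02, adjusted p = 0.00195), and Trip6, a relative of zyxin (-0.80, adjusted p = 0.0112). TGF-β1 raised 5 and lowered 1 of the 49 in control cells (10.2% and 2.04%, beside 5.04% and 3.33% of all genes) and raised 4 and lowered 4 in Smad7-KO cells (8.16% each, beside 5.33% and 4.9%). Nedd9, a docking protein of focal adhesion kinase, changed most (1.82, adjusted p = 7.66e-05 in control and 1.75, adjusted p = 7.83e-05 in Smad7-KO cells). It was followed in control cells by Sorbs3, which encodes vinexin (-0.73, adjusted p = 0.00089), and Fblim1 (0.66, adjusted p = 0.0192), and in Smad7-KO cells by Pdlim7 (0.78, adjusted p = 0.000852) and Sorbs2 (-0.74, adjusted p = 0.0105).

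Of the 20 other integrin chains and integrin regulators tested, 2 were higher and 5 lower upon Smad7 loss without stimulation (10% and 25%, beside 12.1% and 13.7% of all genes), and 0 were higher and 2 lower with TGF-β1 (10% called, beside 13% of all genes). Itgbl1, a protein with repeats like those of a beta chain, differed most (-1.37, adjusted p = 1.54e-05 and -1.41, adjusted p = 1.47e-05). The next were Itga2b, the platelet αIIb chain (-0.96, adjusted p = 0.0483), and the tetraspanin Cd81 (-0.65, adjusted p = 0.0254) in unstimulated cells, and the laminin-receptor tetraspanin Cd151 with TGF-β1 (-0.50, adjusted p = 0.00823). With TGF-β1 only Cd47, a partner of αvβ3, passed as lower in this list in control (-0.43, adjusted p = 0.0163) and in Smad7-KO cells (-0.50, adjusted p = 0.00611), and 0 passed as higher, so that 5% of the list was called in each, beside 8.37% and 10.2% of all genes.

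Of 28 matrix and cell-surface ligands of the receptors tested, 3 were higher and 2 lower upon Smad7 loss without stimulation (17.9% called, beside 25.8% of all genes), and 3 were called with TGF-β1 (10.7%, beside 13%). The largest differences in unstimulated cells were those of nidogen 2 (1.09, adjusted p = 0.0195), osteopontin, encoded by Spp1 (0.91, adjusted p = 0.0292), and tenascin C (0.88, adjusted p = 0.0164). With TGF-β1 2 were higher and 1 lower, namely Ltbp1, which ties latent TGF-β to the matrix (-0.97, adjusted p = 0.00117), Spp1 (0.90, adjusted p = 0.0425) and Tgfb1 itself (0.40, adjusted p = 0.0314). TGF-β1 raised Ltbp1 in control cells (0.79, adjusted p = 0.0031), and Postn, a matricellular ligand of αv integrins (0.63, adjusted p = 0.016), and Emilin1 (0.45, adjusted p = 0.047) in Smad7-KO cells, and lowered 0 of the 28 in either, with 3.57% called in control and 7.14% in Smad7-KO cells beside 8.37% and 10.2% of all genes. Each Smad7-KO comparison shares 1 group of libraries with each TGF-β1 comparison, so their values are given side by side and were not set against each other.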

How the data were processed

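RNA-Seq libraries of poly(A) RNA were made with a NEBNext Ultra kit and sequenced on an Illumina HiSeq as paired-end reads. The submitters' processing notes name CASAVA, TopHat2 2.0, Cufflinks 2.1.1 and HTSeq 0.6.1 and the builds mm10 and GRCm38.p6, without saying what each was used for. The deposited values are raw counts of reads for each gene, which the authors did not normalize, and FPKM scaled by the authors by library total and gene length.

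The counts were fitted in edgeR 4.0.16 (R 4.3.3; filterByExpr, minimum count 10; TMM; robust quasi-likelihood fit to all 12 libraries, 15150 genes tested, 34 of 36 members). Adjusted p values are Benjamini-Hochberg over all genes tested, with a threshold of 0.05. SE was taken from the coefficient and its F statistic. With 3 libraries against 3, an exact test cannot go below p = 0.1. Alternatives were DESeq2 1.42.0, edgeR on the 6 libraries of a comparison, DESeq2's size factors, all genes with any count, limma 3.58.1 with a pseudocount of 1 or 0.1 on the log2 FPKM of those genes that reached 1 FPKM in at least 3 libraries, a block for the replicate number, a loess trend on gene length removed (span 0.3), and each library left out. The procedures were also run on simulated counts that gave every group the same spread. That run does not show how they behave with the unequal spread of the groups here.

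The members and gene lists, and the rule for naming genes, were chosen with earlier results of these data known. All members are accounted for. The level in every library is given for members past the threshold in a Smad7-KO comparison and for the 3 largest responses to TGF-β1, and from each list the 3 largest changes per comparison among genes whose average log2 CPM was 1 or more. Adgre1 and Tns2 were found under the older symbols Emr1 and Tenc1. Xist, Eif2s3y and the per-macrophage-marker levels were chosen after values were seen.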

Additional observations from a re-analysis of the deposited data

How the results depend on the processing

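The precision is limited by 3 libraries a group and by the uneven unstimulated control group, in which library 2 stands apart most. Libraries 1 and 3 of that group differed too, with log2 slopes of -0.165 and 0.0627 for each doubling of gene length. Leaving out library 3 gave the highest counts for Smad7 loss in unstimulated cells (24) and for TGF-β1 in control cells (11). The number of members past the threshold was 16 for Smad7 loss in unstimulated cells, 13 with TGF-β1, 6 for TGF-β1 in control cells, 5 in Smad7-KO cells and 0 for the interaction. edgeR on the 6 libraries of a comparison gave 6 for Smad7 loss in unstimulated cells and 16 for TGF-β1 in Smad7-KO cells. With the trend on gene length removed TGF-β1 in Smad7-KO cells gave 11, and 10 with the replicate block added. The main fit shares 1 estimate of the spread over all groups. The common coefficient of variation between libraries, beyond counting noise, was 0.335 in unstimulated and 0.137 in TGF-β1 control cells. It was 0.053 in unstimulated and 0.0998 in TGF-β1 Smad7-KO cells. The cause of these changes, and the part of this unequal spread in them, was not tested. Leaving out 1 library gave 10 to 24 for Smad7 loss in unstimulated cells, 7 to 17 with TGF-β1, 5 to 11 for TGF-β1 in control cells and 5 to 10 in Smad7-KO cells. The replicate block gave 14, 12, 5, 5 and 0. The deviations of same-numbered libraries correlated at 0.65 for library 2 of unstimulated and TGF-β1 control cells and between -0.33 and 0.13 for every other pair. The main fit took the libraries to share only a number, and what that 1 pair may have in common was not tested. Over all alternatives no called member changed direction, and of the values for single members under alternatives other than a left-out library 1322 kept their direction and their side of the threshold, 30 lost it, 43 gained it and 49, called in neither, changed sign. With 1 library left out 1844 kept both, 76 lost it, 28 gained it and 92, called in neither, changed sign.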
